A study of Mus musculus with 4 samples.

Results

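Foxp3+ alpha beta T cells of mouse skin were taken from 4 single-cell RNA libraries as barcodes with at least 300 genes, at most 15% mitochondrial UMIs (unique molecular identifiers, counted RNA molecules), at least 1 UMI of Cd3d, Cd3e or Cd3g together, at least 1 UMI of Trac or Trbc2 together, no UMI of Trdc and at least 1 UMI of Foxp3. The rule found 193 cells among the 27755 barcodes that passed the gene and mitochondrial limits, and 28847 barcodes were in the files. There were 24 such cells in the MC903 day 9 library, 37 in the oxazolone day 16 library, 103 in the oxazolone day 10 library and 29 in the untreated library. The cells that met the same rule but held no Foxp3 UMI, called Foxp3-negative T cells here, numbered 137 (MC903), 198 (day 16), 248 (day 10) and 107 (untreated). The cells were chosen by measured UMIs of Foxp3 and the T cell receptor genes, so the levels of these genes are descriptions and were not tested.

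Regulatory T cells are CD4 T cells that restrain other immune cells, and the transcription factor FOXP3 is needed for their formation and function. They carry CD25 (Il2ra), the high-affinity interleukin-2 receptor chain, and the inhibitory receptor CTLA-4, and they act through interleukin-10, activated TGF-beta and removal of co-stimulatory ligands from dendritic cells. In skin they sit near hair follicles, and a tissue state with the interleukin-33 receptor ST2 (Il1rl1), KLRG1 and the growth factor amphiregulin (Areg) is known from barrier organs.

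The study profiled dissociated skin with the 10x Genomics 3′ v3.1 chemistry in models of type 2 (allergic) skin inflammation. All groups were female C57BL/6J mice of 6 to 8 weeks, sampled at the neck and ear, with no transgene or deletion named in the labels. In the MC903 group, 1 nmol of MC903 (calcipotriol, a vitamin D analogue) in 100 µL ethanol was applied each day and skin was taken on day 9. The oxazolone groups were sensitised with 3% oxazolone, a contact hapten, and challenged from 7 days later with 1.0% every other day, with harvest on day 16 in one group and on day 10 in the other. The reference was untreated skin, and vehicle-treated skin was not analysed here. Each library pooled the cells of 3 mice, so each group is 1 library without replicates, mice cannot be told apart, and treatment, day and library cannot be separated. The digestion favoured fibroblasts and was followed by dead cell removal, so cell shares are those of the suspension.

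The 4 libraries held 73054242 to 119717836 UMIs. Foxp3+ T cells had medians of 13156 (MC903), 12043 (day 16), 7706 (day 10) and 6858 (untreated) UMIs, and Foxp3-negative T cells of 12267 (MC903), 12151.5 (day 16), 8674.5 (day 10) and 5916 (untreated) UMIs. Between 5 and 16 barcodes were shared by any pair of libraries, and none was a Foxp3+ T cell in both. Scrublet, at the expected rate of 0.8% per 1000 barcodes, removed 2 (MC903), 12 (day 16), 14 (day 10) and 5 (untreated) of the Foxp3+ T cells. RNA of other cell types was present among them and is given with the results it touches. Of 8 dendritic cell genes, 6 (MC903), 5 (day 16), 6 (day 10) and 7 (untreated) were seen, at summed levels of 992 (MC903), 1944 (day 16), 1345 (day 10) and 7604 (untreated) CPM (UMIs of a gene or list scaled to the same total in every sum), with 95.7% (MC903), 58.7% (day 16), 30.5% (day 10) and 39.6% (untreated) from a single cell. Of 8 macrophage or monocyte genes (among them Ccr2, which T cells also use), 6 (MC903), 8 (day 16), 8 (day 10) and 5 (untreated) were seen, at 385 (MC903), 1089 (day 16), 1150.4 (day 10) and 442 (untreated) CPM. Neutrophil genes reached 1878 CPM at oxazolone day 16, against 56.3, 175 and 7.44 in MC903, oxazolone day 10 and untreated skin. Fibroblast genes, at 421 (MC903), 43.9 (day 16), 496 (day 10) and 2093 (untreated) CPM, were highest in untreated skin, where a single cell gave 65.2% of their UMIs. Of the gamma delta T cell markers other than Trdc, which the rule set to 0, there were 0 (MC903), 0 (day 16), 3 (day 10) and 1 (untreated) UMIs, and natural killer markers gave 367 (MC903), 31.3 (day 16), 40.5 (day 10) and 0 (untreated) CPM. A single cell gave 82.2% of the MC903 natural killer UMIs. Single cells also gave 99.6% of keratinocyte UMIs at day 16 (1078 CPM). In MC903 they gave 99.1% of melanocyte or Schwann cell UMIs (716 CPM) and 99.0% of mast cell or basophil UMIs (464 CPM).

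The label was checked with Il2ra, Ctla4, Icos and Tnfrsf4 (OX40), markers named with the cells. All 4 were seen in 15 of 24 (MC903), 29 of 37 (day 16), 62 of 103 (day 10) and 11 of 29 (untreated) Foxp3+ T cells, against 34 of 137 (MC903), 17 of 198 (day 16), 20 of 248 (day 10) and 4 of 107 (untreated) Foxp3-negative T cells. No Foxp3+ T cell lacked all 4, whereas 8 (MC903), 19 (day 16), 43 (day 10) and 20 (untreated) Foxp3-negative T cells did. Cd4 was seen in 70.8% (MC903), 78.4% (day 16), 70.9% (day 10) and 65.5% (untreated) of Foxp3+ T cells and Cd8a in 2 (MC903), 1 (day 16), 1 (day 10) and 0 (untreated) of them. The markers thus stood with the label in each library, although a Foxp3-negative call is only the lack of a captured molecule.

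The threshold of 1 Foxp3 UMI was the lowest possible, and 45 of the 193 cells held exactly 1, with 7 (MC903), 4 (day 16), 24 (day 10) and 10 (untreated) by library. These 45 cells had a median of 6634 UMIs, and 33 of them (73.3%) showed at least 3 of the 4 markers. Among the 148 cells with 2 or more Foxp3 UMIs (median 9812.5 UMIs) the number was 141 (95.3%), and just outside the threshold it was 246 of 690 Foxp3-negative T cells (35.7%, median 10134 UMIs). Ikzf2, which encodes the regulatory T cell factor Helios, stood at 2287 CPM in the cells with 1 Foxp3 UMI, at 1883 in those with more and at 279.7 in Foxp3-negative T cells. Ctla4 gave 1325, 1181 and 322 in the same cells, and the cells with a single Foxp3 UMI thus lay with the other Foxp3+ T cells for both genes. The 193 cells held 85.3% (MC903), 81.7% (day 16), 73.9% (day 10) and 69.6% (untreated) of all Foxp3 UMIs of their libraries. Outside the rule, 12 (MC903), 21 (day 16), 70 (day 10) and 26 (untreated) barcodes had a Foxp3 UMI, of which 9 (MC903), 19 (day 16), 48 (day 10) and 18 (untreated) had no Cd3 UMI and 2 (MC903), 2 (day 16), 22 (day 10) and 5 (untreated) had Cd3 but neither Trac nor Trbc2.

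Foxp3+ cells made up 14.9% of alpha beta T cells in MC903 skin (24 of 161, 95% exact binomial interval 9.79% to 21.4%), 15.7% at oxazolone day 16 (37 of 235, 11.3% to 21.0%), 29.3% at oxazolone day 10 (103 of 351, 24.6% to 34.4%) and 21.3% in untreated skin (29 of 136, 14.8% to 29.2%). The intervals cover counting error only. The highest share, at oxazolone day 10, had an interval above those of MC903 and oxazolone day 16 and overlapping that of untreated skin. The denominator differed between libraries. Among cells with a Cd4 UMI and no Cd8a or Cd8b1 UMI the shares were 21.6% in MC903 (16 of 74), 50% at oxazolone day 16 (28 of 56), 53.5% at oxazolone day 10 (69 of 129) and 40.9% in untreated skin (18 of 44), so that oxazolone day 16 stood near day 10 on this base and MC903 was lowest, with an interval of 12.9% to 32.7% against 44.5% to 62.3% at oxazolone day 10. Depth differed too, and with each cell thinned to 1000 UMIs the shares were 1.52% (MC903), 1.64% (day 16), 7.02% (day 10) and 9.68% (untreated), on 1 to 8 cells. As a share of all barcodes that passed the limits, Foxp3+ T cells were 0.625% (MC903), 0.468% (day 16), 1.24% (day 10) and 0.377% (untreated), which also depends on how well each cell type came through digestion.

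**Figure D1:**
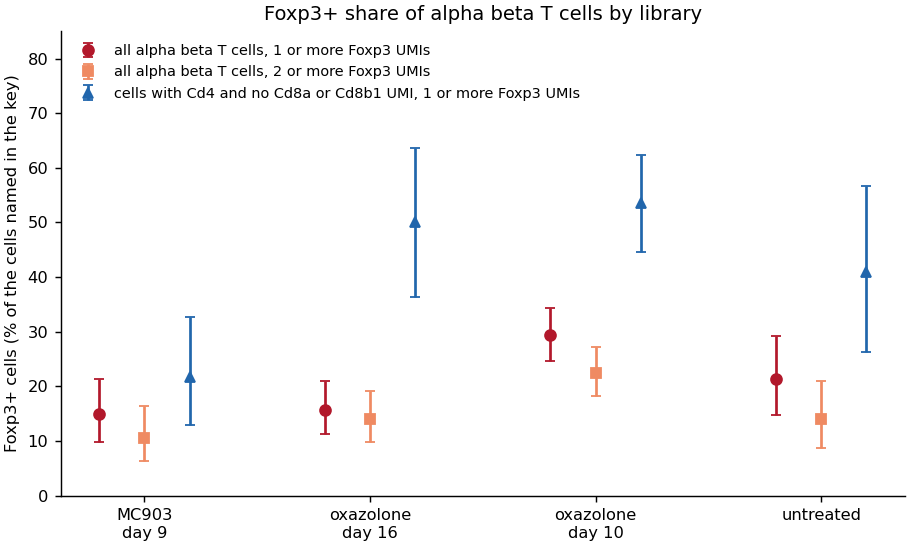
Foxp3+ cells as a percentage of alpha beta T cells and of the cells with Cd4 and no Cd8 UMI (vertical axis) in the 4 libraries (horizontal axis); points are shares and bars 95% exact binomial intervals, and another series, named in the key, counts cells with 2 or more Foxp3 UMIs. The share was 29.3% of alpha beta T cells at oxazolone day 10 and 14.9% in MC903 skin, while among Cd4+ cells oxazolone day 16 (50%) and day 10 (53.5%) lay close together.

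To learn what set Foxp3+ T cells apart from their neighbours, UMIs were summed per library in Foxp3+ and in Foxp3-negative T cells and compared across the 4 libraries with edgeR's quasi-likelihood test, with library as a block. Of 8699 genes tested, 224 passed an adjusted p under 0.05 (2.58%), 130 of them higher (1.49%) and 94 lower (1.08%) in Foxp3+ T cells, and 1290 genes had an unadjusted p under 0.05. Core regulatory genes such as Ikzf2 and Ctla4, the tissue genes Klrg1 and Il1rl1 and the cytokine receptor genes Il6st, Il6ra and Il1r2 were higher in Foxp3+ T cells, and Tcf7, Bach2, Cxcr6, Xcl1 and Prf1 were lower. The Foxp3-negative cells were a mixture that included CD4 and CD8 T cells, with Cd8a in 31.4%, 57.1%, 35.1% and 9.35% of them. Gamma delta T cell markers other than Trdc were seen in 17 (MC903), 21 (day 16), 16 (day 10) and 32 (untreated) of them. Natural killer markers stood at 253 (MC903), 2486 (day 16), 309 (day 10) and 19.3 (untreated) CPM in these cells. The part of such cells in the genes that were lower was not tested. With Foxp3+ and Foxp3-negative cells limited to those with Cd4 and no Cd8 UMI, 44 of 5610 genes passed, 35 of them among the 224. There Klrg1 (log2 fold change 2.34), Il6ra (0.67) and Il1r2 (1.06) were not called, and Xcl1 and Prf1 were not among the genes tested. The count of 224 rested on having all 4 libraries: it was 101 without MC903, 42 without oxazolone day 16, 26 without oxazolone day 10 and 50 without untreated skin. In simulated data of this size the test found 94.8% of genes changed 4-fold and 16.2% of those changed 2-fold. The changed genes were drawn only from those above a minimum mean count, so these rates do not cover genes with few UMIs. The simulated spread (dispersion 0.1) was wider than that fitted to the data (0.0586). In the results of this test, values of a gene are given for MC903, oxazolone day 16, oxazolone day 10 and untreated skin in turn, and a lone number after a gene is its log2 fold change.

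Of the 14 core regulatory T cell genes tested, 9 rose and none fell, with a median log2 fold change of 1.52 against -0.02 over all genes tested. Ikzf2 (chromosome 1, 69531214 to 69687245, mm10) stood at 1298, 1319.7, 2666 and 1469 CPM in Foxp3+ T cells and at 112, 206, 433 and 417 in Foxp3-negative T cells. Every Foxp3+ sum lay above every Foxp3-negative sum, and the log2 fold change was 2.60 ± 0.23 (SE, n = 4 libraries, edgeR adjusted p = 0.0051). Ctla4 had 1226, 1558, 1120.5 and 677 CPM in Foxp3+ and 542, 294, 217 and 221 in Foxp3-negative T cells, again without overlap (1.84 ± 0.23, edgeR adjusted p = 0.0115). The Ctla4 call held in 9 of 13 alternative fits and the Ikzf2 call in 13 of 13. Il2ra gave 722, 561, 537 and 283 CPM in Foxp3+ against 314, 168, 75.5 and 116 in Foxp3-negative T cells (1.71 ± 0.28, edgeR adjusted p = 0.022). The MC903 Foxp3-negative value for Il2ra exceeded the untreated Foxp3+ value, so the groups overlapped across libraries while each library moved the same way. Tnfrsf18 (GITR, a TNF receptor family co-stimulator, 1.34), Socs2, a cytokine signalling inhibitor (1.44), Ikzf4, which encodes Eos (2.11), the inhibitory receptor Tigit (1.15), the activation marker Cd83 (1.60) and Izumo1r, folate receptor 4 (2.95), were the other risers. With MC903 left out 5 core genes were called, and with oxazolone day 16, oxazolone day 10 or untreated skin left out 1 each; 3 of 14 were called among cells with Cd4 and no Cd8 UMI.

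Tnfrsf4 (OX40) did not pass. It had 329 (MC903), 577 (day 16), 342 (day 10) and 227 (untreated) CPM in Foxp3+ and 215 (MC903), 37.3 (day 16), 38.9 (day 10) and 42.5 (untreated) in Foxp3-negative T cells (2.50 ± 0.52, edgeR adjusted p = 0.0506), the MC903 Foxp3-negative cells standing well above those of the other libraries. Icos (0.79), Nrp1, the semaphorin receptor neuropilin-1 (0.14), Capg (0.16) and Il2rb, the interleukin-2 receptor beta chain (-0.11), were also not called. Neither Lrrc32 (GARP, which holds latent TGF-beta on the surface) nor Gpr83 was among the genes tested. Ctla4 UMIs occurred in fibroblasts as well, in 35.4% (MC903), 16.8% (day 16), 33.1% (day 10) and 54.6% (untreated) of cells with at least 5 Col1a1 and Col3a1 UMIs and no Cd3 or Ptprc UMI, whose medians were 23938.5 (MC903), 27367 (day 16), 18150 (day 10) and 11933 (untreated) UMIs. At 1000 UMIs per cell these shares were 1.5% (MC903), 0.395% (day 16), 1.87% (day 10) and 8.12% (untreated), against 70.8% (MC903), 70.3% (day 16), 61.2% (day 10) and 55.2% (untreated) of Foxp3+ T cells.

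**Figure D2:**
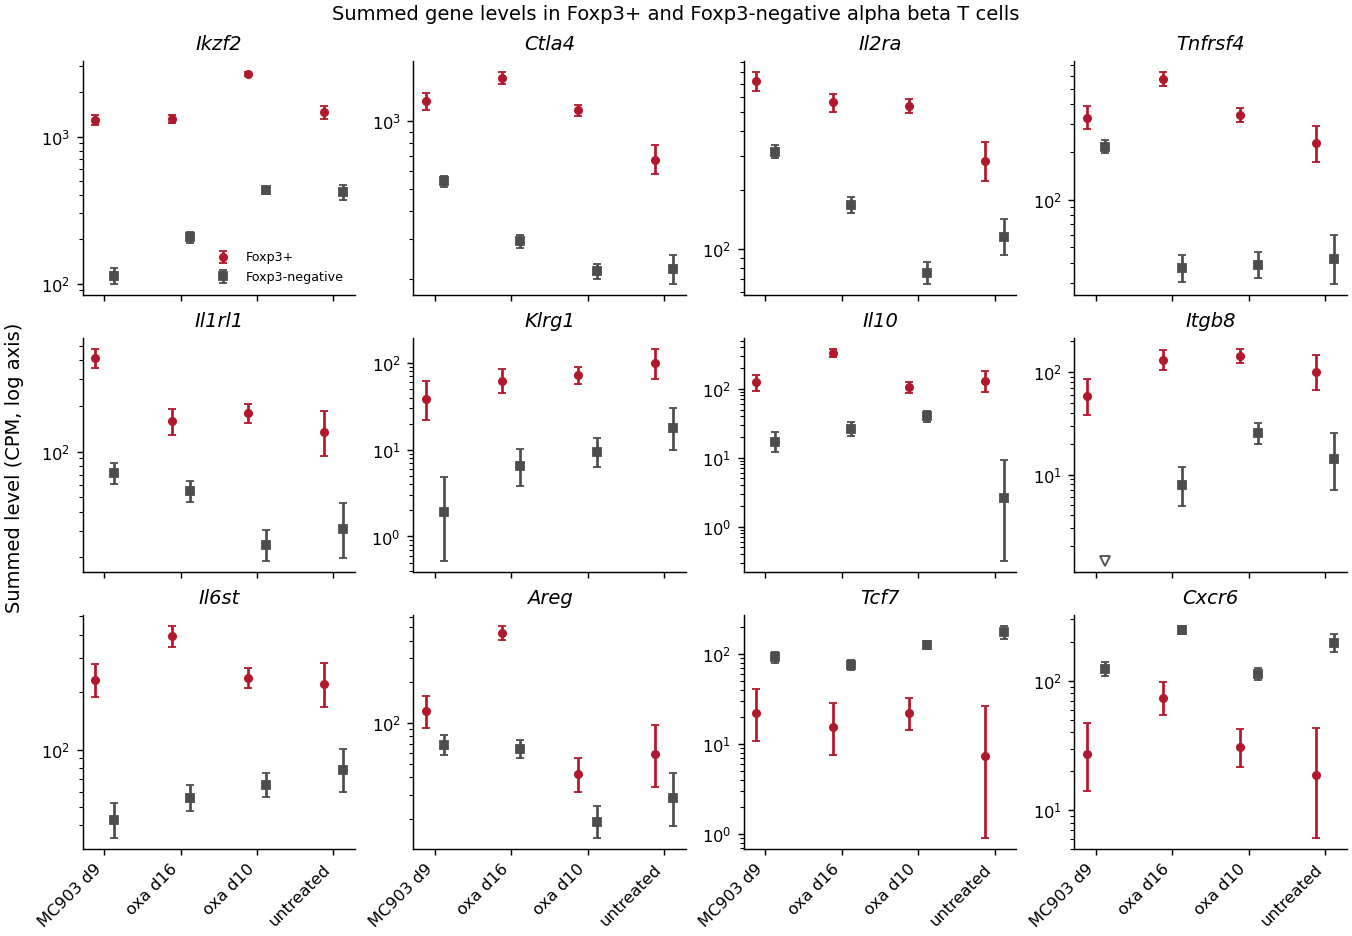
Summed levels of 12 genes in Foxp3+ and Foxp3-negative alpha beta T cells of each library, in CPM on a log axis; oxa is oxazolone and d the day, bars are 95% exact Poisson intervals, which cover counting error only, and an open triangle marks 0 UMIs drawn at the level of 3 UMIs. Ikzf2, Il1rl1 and Klrg1 lay higher in Foxp3+ T cells of all 4 libraries, and Tcf7 lay lower.

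Among 14 suppressive effector genes tested, 3 rose and 1 fell (median 0.29). Il10 had 124, 334, 105 and 130.1 CPM in Foxp3+ and 17.0, 26.5, 40 and 2.57 in Foxp3-negative T cells, without overlap (2.85 ± 0.48, edgeR adjusted p = 0.0247). Itgb8, the integrin chain that activates latent TGF-beta, had 58.5, 132, 145 and 100.4 CPM in Foxp3+ and 0, 7.88, 25.4 and 14.2 in Foxp3-negative T cells (3.45 ± 0.52, edgeR adjusted p = 0.0182). Ebi3, a subunit of interleukin-27 and interleukin-35, rose as well, on 4 to 21 UMIs per Foxp3+ sum: 2.38 ± 0.40 (edgeR adjusted p = 0.0247). Prf1, the pore protein perforin, fell (0, 15.7, 2.64 and 7.44 against 12.3, 50.9, 38.3 and 23.2 CPM, -2.59 ± 0.49, edgeR adjusted p = 0.0394). The fold change of Prf1, with 0 UMIs in MC903 Foxp3+ T cells, depends on the prior count. Tgfb1 (-0.39), granzyme B (Gzmb, 0.90), the ectoenzymes Entpd1 (0.62) and Nt5e (0.33) and the checkpoint receptors Lag3 (-0.55), Pdcd1 (-0.85) and Havcr2 (0.25) did not pass. MC903 Foxp3-negative T cells had 0 Itgb8 UMIs, so its fitted fold change depends on the prior count. The list had 2 higher calls without MC903, none without oxazolone day 16 or untreated skin and 1 without oxazolone day 10. Among cells with Cd4 and no Cd8 UMI 1 of 12 was called, and Il10 was not, at 1.44 (edgeR adjusted p = 0.252, with 8.71e-16 to 0.252 over its alternatives). The Il10 call was made in 7 of 13 alternative fits, Itgb8 in 8 of 12, Ebi3 in 4 of 8 and Prf1 in 4 of 11.

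Of 17 tissue and effector genes tested, 5 rose and none fell (median 1.10). Klrg1, an inhibitory lectin receptor (chromosome 6, 122270596 to 122282882), had 38.3, 62.7, 72.1 and 100.4 CPM in Foxp3+ and 1.89, 6.45, 9.48 and 18 in Foxp3-negative T cells, with no overlap (3.06 ± 0.28, edgeR adjusted p = 0.00665). Il1rl1 (chromosome 1, 40429570 to 40465415) had 414, 158, 179 and 134 CPM in Foxp3+ and 71.8, 54.8, 24.0 and 30.9 in Foxp3-negative T cells, with no overlap either (2.21 ± 0.24, edgeR adjusted p = 0.00728). Both calls held in 12 of 13 alternative fits. Klrg1 was not called among cells with Cd4 and no Cd8 UMI (2.34, edgeR adjusted p = 0.152). Tnfrsf9 (4-1BB, 2.07), Prdm1 (the effector factor Blimp-1, 1.80) and Batf (1.16) were the other members that rose. The list had 4, 3, 2 and 2 calls without MC903, oxazolone day 16, oxazolone day 10 and untreated skin, and 2 of 14 genes were called among cells with Cd4 and no Cd8 UMI. Areg did not pass, although it was higher in Foxp3+ T cells of every library: 122, 459, 42.2 and 59.5 CPM against 69.5, 64.8, 19.0 and 28.3 (1.49 ± 0.36, edgeR adjusted p = 0.0775). Its Foxp3+ value at oxazolone day 16 stood far above the other 3. Gata3 (0.36), Rora (0.15), Maf (0.98), Irf4 (0.61), Pparg (-0.63) and the chemokine receptor Ccr8 (0.69) were not called.

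Receptors for cytokines and chemokines differed in part. Of 19 cytokine receptor and signalling genes tested, 4 rose and 1 fell (median 0.32). Il6st, the shared signal chain gp130, had 232, 393, 237 and 219 CPM in Foxp3+ and 42.5, 55.9, 65.4 and 78.5 in Foxp3-negative T cells, without overlap (2.11 ± 0.22, edgeR adjusted p = 0.00728, called in 13 of 13 alternative fits). Il6ra, which pairs with gp130 to bind interleukin-6 (1.26 ± 0.17, edgeR adjusted p = 0.0124), Il1r2, the decoy interleukin-1 receptor (1.28 ± 0.23, edgeR adjusted p = 0.0293) and Socs3, a feedback inhibitor of gp130 signalling (1.43 ± 0.28, edgeR adjusted p = 0.0413), rose too, with Il6ra called in 8 of 13 and Il1r2 in 6 of 13 alternative fits. Among cells with Cd4 and no Cd8 UMI only Il6st of the 19 was called (2.22, edgeR adjusted p = 0.0385). Il6ra stood at 0.67 (edgeR adjusted p = 0.283) and Il1r2 at 1.06 (edgeR adjusted p = 0.193) among those cells. Tgfbr2, a TGF-beta receptor, fell (85.5, 97.2, 85.3 and 85.5 against 169, 159, 142 and 175 CPM, -0.91 ± 0.15, edgeR adjusted p = 0.0247), with no overlap between the kinds of cell, and the call was made in 6 of 13 alternative fits. Among 14 chemokine and homing receptors tested, Ccr4, the receptor for CCL17 and CCL22, rose (135, 54.9, 48.4 and 63.2 against 48.7, 19.0, 5.42 and 16.7 CPM, 1.88 ± 0.32, edgeR adjusted p = 0.0247, called in 6 of 13 alternative fits). Cxcr6 fell (27.0, 73.7, 30.8 and 18.6 against 124, 249, 114 and 197 CPM, -2.20 ± 0.24, edgeR adjusted p = 0.0077), as did the integrin chain Itga4 (-1.89). Among cells with Cd4 and no Cd8 UMI only Cxcr6 of the 14 was called (-1.99, edgeR adjusted p = 0.0244). Ccr4 stood at 0.97 there (edgeR adjusted p = 0.405). Ccr2 (1.30, edgeR adjusted p = 0.0604) was higher in all 4 libraries and did not pass. Of 15 TNF receptor and NF-kB genes only Nfkbia, the NF-kB inhibitor, passed (0.66 ± 0.13, edgeR adjusted p = 0.0435, median 0.42). Nfkbia was called in 5 of 13 alternative fits, and the list had no call with any 1 of the 4 libraries left out, with at least 2 Foxp3 UMIs or among cells with Cd4 and no Cd8 UMI.

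Genes of resting lymphocytes and of helper lineages were lower or not called. Of 10 resting and lymphoid genes tested, 2 fell and none rose (median -0.27). Tcf7, the stem and memory factor TCF-1, had 22.5, 15.7, 22 and 7.44 CPM in Foxp3+ and 92.6, 76.3, 126 and 175 in Foxp3-negative T cells, without overlap (-2.67 ± 0.30, edgeR adjusted p = 0.008). Bach2, a repressor of effector genes, had 94.5, 64.3, 38.7 and 145 CPM in Foxp3+ and 164, 164, 258 and 332 in Foxp3-negative T cells (-1.59 ± 0.29, edgeR adjusted p = 0.0346). Il7r (0.01) and S1pr1 (-0.03) were not called. Of 17 helper programme genes 8 were tested and none passed (median -0.83). The TH1 factor T-bet (Tbx21) stood at -1.17 ± 0.26 with edgeR adjusted p = 0.062, and Il4 at -2.30 ± 0.52 with edgeR adjusted p = 0.065. Several helper cytokines were scarce in Foxp3+ T cells. Il13 and Il21 had 0 UMIs in all 4 libraries, Il5 had 0, 0, 2 and 0 UMIs, Il4 had 10, 0, 6 and 0, and Il17a had 0, 2, 5 and 0. In MC903 skin Ifng and Tnf were higher in Foxp3+ than in Foxp3-negative T cells (log2 ratios of summed levels 1.52 and 2.08). Most of those Tnf UMIs came from a single cell. Ifng was lower at oxazolone day 16 (-4.28), at oxazolone day 10 (-3.73) and in untreated skin (at most -2.41), and Tnf in untreated skin (-1.08).

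Of 15 cell cycle genes, 11 interferon-stimulated genes and 10 glycolysis and hypoxia genes tested, none was called, with medians of 0.23, 0.42 and 0.08. Of 11 antigen receptor response genes only Tox was called, a factor known from stimulated T cells (1305, 529.8, 1229 and 1379 against 316, 189, 462 and 713 CPM, 1.42 ± 0.16, edgeR adjusted p = 0.008). Among 14 genes that dissociation is known to induce, Zfp36 (0.72), Dusp1 (0.75) and Fos (1.05) rose and none fell (median 0.21). No member passed once cells with marker UMIs of other cell types were left out, where Zfp36 stood at -0.21, or when any of the 4 libraries was left out.

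Among called genes with at least 100 UMIs and 1 direction in all 4 libraries, the highest log2 fold change was that of Frmd5, a FERM domain protein gene (chromosome 2, 121545529 to 121807087). It had 947, 444, 509 and 1023 CPM in Foxp3+ and 33.5, 3.94, 49.1 and 65.6 in Foxp3-negative T cells, without overlap (4.48 ± 0.47, edgeR adjusted p = 0.00728), and it was called in all 13 alternative fits. Ankrd55 (3.61 ± 0.38, edgeR adjusted p = 0.00728), Tnfrsf8, which encodes CD30 (2.79 ± 0.38, edgeR adjusted p = 0.012), Neb, which encodes nebulin (2.57 ± 0.32, edgeR adjusted p = 0.0115), Bmyc (2.21) and Tbc1d30 (2.20) were also among the 12 highest, with Itgb8, Klrg1, Izumo1r, Il10, Ikzf2 and Il1rl1 named above. Several of the lowest genes are known from CD8 T and natural killer cells. Xcl1, a chemokine of CD8 T and natural killer cells, had 0, 0, 0.879 and 0 CPM in Foxp3+ and 13.7, 60.9, 46.4 and 42.5 in Foxp3-negative T cells (-6.54 ± 0.54, edgeR adjusted p = 0.0051); with 3 libraries at 0, this fold change depends on the prior count. The natural killer cell receptor gene Cd160 (-5.18), Cd8a (-4.59), the protease gene Ctsw (-3.28), Styk1 (-6.05), Clnk (-3.69) and Cd163l1 (-4.43) were lower too. Styk1 and Cd163l1 had 0 UMIs in 3 of the 4 Foxp3+ sums, Cd160 in 2 and Clnk in 1, so their fold changes also depend on the prior count. Mctp2 (-4.01 ± 0.41, edgeR adjusted p = 0.00728) was also low among cells with Cd4 and no Cd8 UMI (-4.21), where too few UMIs of Xcl1 and Cd160 remained for a test.

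**Figure D3:**
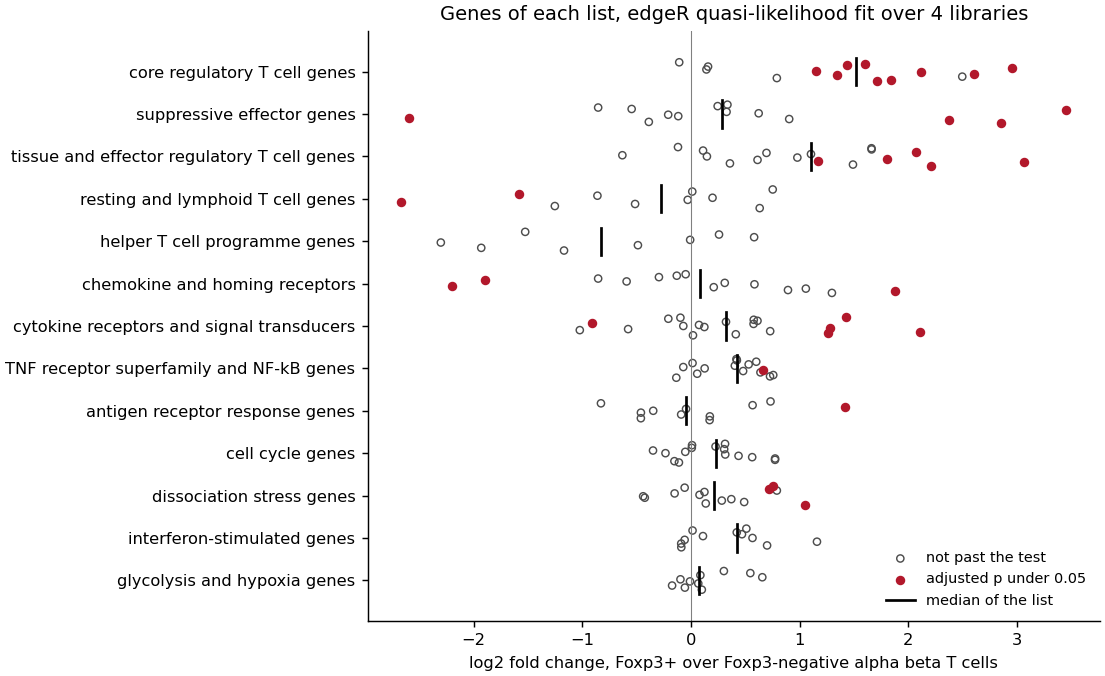
Log2 fold change, Foxp3+ over Foxp3-negative T cells (horizontal axis), of every tested gene of the 13 lists (rows); filled points passed an adjusted p under 0.05 in edgeR's fit over 4 libraries, open points did not, and black lines are list medians. Core regulatory T cell genes (median 1.52) and tissue and effector genes (median 1.10) lay to the right, and cell cycle genes centred near 0.

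Promoters of the genes that rose were searched for TGTTTAC, a core motif of forkhead factors such as FOXP3, in the 250 bases before the start (RefSeq, GRCm38.p6, both strands). The motif was in 836 of all 27025 promoters of the table (3.09%). The AP-1 motif TGANTCA, the GATA motif AGATAA and the STAT motif TTCNNNGAA were searched in the same way and were in 6.87%, 10.3% and 7.18% of them, and overlaps between motifs were not removed. A promoter was found for 99 of the 130 genes, and 4 of these held the forkhead motif, 6 the AP-1, 8 the GATA and 7 the STAT motif. For the 94 genes that fell it was found for 74, of which 3, 6, 7 and 7 held these motifs in turn. For the 8699 genes tested it was found for 6908, of which 151, 264, 378 and 394 held them. Since fewer than 80% of the genes of each set had a promoter, no share over these sets is read. Of these, only the 4 genes that rose and held the forkhead motif are shown. They are the guanylate-binding protein gene Gbp3 (chr3:142559794-142560043 on the plus strand, log2 fold change 1.55), Prdm1 (chr10:44458749-44458998 on the minus strand), the syntenin-2 gene Sdcbp2 (chr2:151572373-151572622 on the plus strand, log2 fold change 1.81) and the signalling adaptor gene Swap70 (chr7:110221453-110221702 on the plus strand, log2 fold change 1.18). Each is written along the gene's strand, 5′ to 3′, with TGTTTAC or its reverse complement GTAAACA in capitals. A match is a description of the letters; binding was not measured.
Gbp3: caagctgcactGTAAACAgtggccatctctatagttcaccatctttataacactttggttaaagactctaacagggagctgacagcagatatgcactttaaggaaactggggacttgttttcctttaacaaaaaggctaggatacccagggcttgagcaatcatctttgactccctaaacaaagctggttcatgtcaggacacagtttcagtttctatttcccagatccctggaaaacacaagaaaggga
Prdm1: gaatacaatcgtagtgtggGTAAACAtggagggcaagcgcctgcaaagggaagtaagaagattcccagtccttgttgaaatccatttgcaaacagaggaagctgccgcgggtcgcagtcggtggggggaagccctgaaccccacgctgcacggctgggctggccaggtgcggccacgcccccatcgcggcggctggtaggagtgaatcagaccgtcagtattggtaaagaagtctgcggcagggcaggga
Sdcbp2: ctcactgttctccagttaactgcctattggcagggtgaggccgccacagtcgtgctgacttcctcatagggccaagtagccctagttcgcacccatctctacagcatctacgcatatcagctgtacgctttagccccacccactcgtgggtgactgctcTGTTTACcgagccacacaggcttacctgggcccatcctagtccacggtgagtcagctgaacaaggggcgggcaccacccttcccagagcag
Swap70: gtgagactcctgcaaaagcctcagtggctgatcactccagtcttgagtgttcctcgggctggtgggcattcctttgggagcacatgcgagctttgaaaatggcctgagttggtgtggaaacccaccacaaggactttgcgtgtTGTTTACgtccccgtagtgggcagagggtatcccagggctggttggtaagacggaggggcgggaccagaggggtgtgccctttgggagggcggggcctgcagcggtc

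The treatments were compared within Foxp3+ T cells as ratios of summed levels, without a test, since each group was 1 library. A gene counted as measured with at least 30 UMIs in the pair and as called at a ratio of at least 2-fold, and intervals (95%, exact) cover counting error only. A number after the word Foxp3-negative is the log2 ratio of the same gene in Foxp3-negative T cells, and the difference between both kinds of cell was not tested. A single cell could carry a value among 24 to 103 cells, so cells with a UMI are given where this matters. A lone number after a gene is its log2 ratio. The comparisons with untreated skin share that library, and those with oxazolone day 10 share that one. The file headers give Cell Ranger 8.0.0 for MC903 and oxazolone day 16 and 7.2.0 for oxazolone day 10 and untreated skin, so that version and group cannot be told apart except in oxazolone day 10 against untreated skin.

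In MC903 against untreated skin, 810 of 4182 measured genes passed 2-fold (19.4%), 468 higher (11.2%) and 342 lower (8.18%). Il1rl1, the interleukin-33 receptor, stood at 414 CPM in MC903 and 134 in untreated Foxp3+ T cells, a log2 ratio of 1.63, 95% interval 1.11 to 2.19, against a log2 ratio of 1.22 in Foxp3-negative T cells. It was seen in 20 of 24 MC903 and 15 of 29 untreated Foxp3+ T cells. Il2rb had 333 against 96.7 CPM (1.78, 95% interval 1.18 to 2.45, Foxp3-negative 1.13), and Tnfrsf9 522 against 253 (1.05, Foxp3-negative 2.48). Il2ra was higher as well (722 against 283, 1.35, Foxp3-negative 1.44), but 43.9% of its MC903 UMIs came from 1 cell, and without the top cell of each library the log2 ratio was 0.67, under 2-fold. Of 13 measured core genes 4 were higher and none lower (median 0.53), and of 12 tissue and effector genes 4 were higher and 1 lower (median 0.37), against a median of 0.15 over all measured genes. In Foxp3-negative T cells 7 of 14 core genes were higher and 2 lower (median 0.93), and 5 of 15 tissue and effector genes were higher and 2 lower (median 0.39).

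Of 14 measured TNF receptor and NF-kB genes, 4 were higher in MC903 than in untreated skin (median 0.20). Tnfaip3, the NF-kB feedback inhibitor A20, stood at 916 CPM in MC903 and 212 in untreated Foxp3+ T cells (2.11, 95% interval 1.71 to 2.54, Foxp3-negative 1.08). The survival gene Birc3 (1.30, Foxp3-negative 0.66), Nfkb1 (1.22, Foxp3-negative 0.49) and Nfkbia (1.09, Foxp3-negative 0.76) were higher too, which made 4 of 14 measured members, with none lower, against 1 of 16 higher and 1 lower in Foxp3-negative T cells. With every cell scaled to the same total, 2 of the 14 were higher and 1 lower, with a median of -0.28 in place of 0.20. Nfkb1 (0.54) and Nfkbia (0.41) were then under 2-fold and Tnfaip3 was 1.16. The chemokine receptor Cxcr4 (1.58, Foxp3-negative 0.90) and Cd5, a brake on antigen receptor signalling (1.26, Foxp3-negative 1.18, or 0.85 with every cell scaled alike), were higher. Ifitm1, an interferon-induced membrane protein, had 495 against 22.3 CPM (4.47, 6.85 in Foxp3-negative T cells). Tnf (2.10, Foxp3-negative -1.06) rested on 1 cell with 83.7% of its UMIs, and without the top cell of each library it was 0.56. Single cells also carried the melanocyte gene Dct, the mast cell gene Cpa3 and Thbs1 (100%, 100% and 94.8% of their MC903 UMIs). The chemokine gene Ccl5 was seen in 4 cells, 1 of them with 79.8%.

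In oxazolone day 16 against untreated skin, 1023 of 4640 measured genes passed 2-fold (22%), 476 higher (10.3%) and 547 lower (11.8%). Scaling by TMM in place of total UMIs gave a median of all genes of 0.24 in place of -0.10 and a split of 751 higher and 313 lower. Areg, an epidermal growth factor receptor ligand of tissue repair, stood at 459 CPM at day 16 and 59.5 in untreated Foxp3+ T cells (2.95, 95% interval 2.22 to 3.77), with a log2 ratio of 1.20 in Foxp3-negative T cells. It was seen in 24 of 37 cells (64.9%) at day 16 and 9 of 29 (31.0%) in untreated skin, and in 1.34% and 0.483% of fibroblasts. At 1000 UMIs per cell the shares were 27.0% (13.8% to 44.1%) and 10.3% (2.19% to 27.4%), whose intervals overlap. Gzmb stood at 989 against 138 CPM (2.85, 95% interval 2.37 to 3.37), with a log2 ratio of 3.63 in Foxp3-negative T cells. Il10 had 334 against 130.1 CPM (1.36, 95% interval 0.84 to 1.92, with 74 and 2 UMIs in Foxp3-negative T cells) and Tnfrsf4 577 against 227 (1.35, 95% interval 0.95 to 1.76), and Tnfrsf4 had a log2 ratio of -0.19 in Foxp3-negative T cells.

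Of 14 measured core genes 5 were higher and 1 lower at day 16 than in untreated skin, and of 14 tissue and effector genes 5 were higher and none lower (medians 0.51 and 0.49 against -0.10 over all genes). In Foxp3-negative T cells 3 of 13 core genes were higher and 3 lower (median 0.04), and 5 of 16 tissue and effector genes were higher and 3 lower (median 0.06). Tnfrsf9 (1.44, Foxp3-negative 2.12), Il2rb (1.41, Foxp3-negative 1.41) and the circadian and cytokine factor gene Nfil3 (2.53, Foxp3-negative 1.27) were members of these lists that were higher. Of the chemokine receptors, Ccr2 (1.14, -0.28 in Foxp3-negative T cells) was higher. Of 8 measured interferon-stimulated genes 5 were higher (median 1.39; 8 of 12 and 1.22 in Foxp3-negative T cells), among them Ifi27l2a (869.9 against 290.0 CPM, 1.58, Foxp3-negative 0.22), Isg15 (1.98, Foxp3-negative 1.39), the nucleic acid sensor Zbp1 (1.75, Foxp3-negative 2.26) and Gbp2 (1.51, Foxp3-negative 4.47). Of 10 glycolysis and hypoxia genes 8 were higher (median 1.21; 3 of 11 and 0.80 in Foxp3-negative T cells). Of these, Pkm, pyruvate kinase, had 508 against 182 CPM (1.48, 95% interval 1.04 to 1.94, Foxp3-negative 0.83), and the hypoxia factor gene Hif1a had 633 against 242 (1.39, 95% interval 1.01 to 1.79, Foxp3-negative 1.22). Without Scrublet doublets, 12 of which were at day 16, the counts were 5 of 7 interferon-stimulated and 4 of 7 glycolysis genes. Tox was lower (529.8 against 1379 CPM, -1.38, -1.91 in Foxp3-negative T cells).

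Some of the largest day 16 ratios came with RNA of other cell types. Arg1, an arginase of myeloid cells, had 868 UMIs in 15 cells at day 16 and 0 in untreated skin, but 1 UMI in the 10 cells of day 16 without marker UMIs of other types. The monocyte chemokine gene Ccl2 (4.66, with 209 and 2 UMIs in Foxp3-negative T cells) was -0.75 without doublets, and 99.4% of Mmp12 UMIs were in 1 cell. Il1r2 (3.38, Foxp3-negative 1.83) stayed higher without doublets (1.93), and Nfkb1 (1.19, Foxp3-negative -0.16) was 0.48, under 2-fold. Neutrophil markers, at 1878 against 7.44 CPM, and macrophage markers, at 1089 against 442, moved with these genes, and their part in the other day 16 values was not tested.

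In oxazolone day 10 against untreated skin, 1208 of 6564 measured genes passed 2-fold (18.4%), 740 higher (11.3%) and 468 lower (7.13%). Cell cycle genes had the highest median of the lists. Of 15, 10 were higher and none lower, with a median of 1.67 against 0.10 over all genes, and 2 of 15 and 0.51 in Foxp3-negative T cells. Birc5, which encodes survivin, had 114 against 26.0 CPM (2.14, 95% interval 1.05 to 3.48, Foxp3-negative 0.58). Ccnb2, a mitotic cyclin (2.26, Foxp3-negative 0.32), the kinase gene Cdk1 (2.75, 95% interval 0.83 to 5.83, Foxp3-negative 0.33), the replication gene Mcm5 (3.21, 95% interval 0.64 to 8.55, Foxp3-negative 1.24), the histone gene Hist1h3c (5.80, 95% interval 3.31 to 11.11, Foxp3-negative 0.21) and Cenpf (4.28, 95% interval 2.40 to 7.34, Foxp3-negative 0.61) were higher too, with 1 or 2 UMIs of Cdk1, Mcm5, Hist1h3c and Cenpf in untreated skin. In untreated skin the UMIs of each of these genes came from 1 cell, against 21, 21, 15, 16, 13 and 20 cells at day 10, and without doublets 5 of 11 measured cell cycle genes were higher (median 1.00). Mki67 was seen in 40 of 103 Foxp3+ T cells at day 10 (38.8%) and 5 of 29 in untreated skin (17.2%), and in 9.62% and 2.23% of fibroblasts. At 1000 UMIs per cell the Mki67 shares were 15.5% (9.15% to 24.0%) and 6.90% (0.846% to 22.8%), whose intervals overlap.

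Of 15 tissue and effector genes 3 were higher and 1 lower at oxazolone day 10 (median 0.12), and of 12 suppressive effector genes 2 were higher and 1 lower (median 0.24). In Foxp3-negative T cells the counts were 3 higher and 4 lower of 16 (median -0.47) and 5 higher and 1 lower of 13 (median 0.76). Gzmb had 528 against 138 CPM (1.94, 95% interval 1.46 to 2.46), with a log2 ratio of 1.99 in Foxp3-negative T cells. Tnfrsf9 (1.35, Foxp3-negative 1.58), Il2rb (1.55, Foxp3-negative 1.33), Nfil3 (1.74, Foxp3-negative 0.44) and Il1r2 (1.92, Foxp3-negative 0.55) were higher as well. Ccr2, which guides cells to inflamed tissue, had 562 against 227 CPM (1.31, 95% interval 0.93 to 1.71, or 0.96 with every cell scaled to the same total), with a log2 ratio of -0.66 in Foxp3-negative T cells. Macrophage and monocyte markers, a list that holds Ccr2, stood at 1150.4 against 442 CPM. The glycolysis genes Eno1 (1.54, Foxp3-negative 0.35), Ldha (1.25, Foxp3-negative 0.21) and Pkm (1.07, Foxp3-negative 0.62) were higher, 3 of 9 measured against none of 10 in Foxp3-negative T cells, and with every cell scaled to the same total Ldha was 0.71 and Pkm 0.75. Bach2 had 38.7 against 145 CPM (-1.91, 95% interval -2.56 to -1.25, Foxp3-negative -0.36). Rasa3, a Ras GTPase-activating protein (2.93, Foxp3-negative -0.17), and the lymphocyte GTPase gene Gimap4 (2.88, Foxp3-negative 1.03) were among the higher genes outside the lists.

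Several genes differed between each treated library and untreated skin. Satb1, a chromatin organiser of T cell development, had 176, 298 and 305 UMIs in MC903, oxazolone day 16 and oxazolone day 10, against 2 UMIs in untreated Foxp3+ T cells. It was seen in 14 of 24 (MC903), 30 of 37 (day 16), 71 of 103 (day 10) and 2 of 29 (untreated) cells. The summed levels were 396 (MC903), 467 (day 16), 268 (day 10) and 7.44 (untreated) CPM, and log2 ratios to untreated were 5.74, 95% interval 3.86 to 8.79, 5.97, 95% interval 4.11 to 9.03 and 5.17, 95% interval 3.31 to 8.22. Foxp3-negative T cells gave 758 (MC903), 504 (day 16), 320.4 (day 10) and 134 (untreated) CPM, with untreated skin again lowest. Klf2, a factor of lymphocyte recirculation, ran the other way at 101 (MC903), 70.5 (day 16), 72.1 (day 10) and 290.0 (untreated) CPM, with 59.0% of its untreated UMIs in 1 cell; without the top cell of each library the log2 ratios were -0.45, -1.20 and -0.91, past 2-fold at oxazolone day 16 and not in the others. Dissociation stress genes were lower in all 3 treated libraries, by 5, 5 and 8 of 14 genes with none higher (medians -0.75, -0.63 and -1.27; -0.45, -0.68 and -1.24 in Foxp3-negative T cells). With TMM scaling the day 16 count was 2 of 14 and the median -0.29. Examples were Jun in MC903 (248 against 721 CPM, -1.54, Foxp3-negative -2.01) and Atf3 (-3.36, Foxp3-negative -2.94), Fos (-1.91, Foxp3-negative -2.10) and Ier2 (-2.20, Foxp3-negative -1.25) at oxazolone day 10. Egr1, an immediate early gene, was lower in MC903 (-2.17, Foxp3-negative -1.34) and at oxazolone day 10 (-2.54, Foxp3-negative -1.39), and Nr4a1 at day 10 (-1.52, Foxp3-negative -2.25).

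H2-Aa, Col8a1 and Cytl1 were lower in treated libraries too. H2-Aa, an antigen-presenting class II gene, stood at 128 CPM in MC903 and 2056 in untreated skin, where 8 of 29 Foxp3+ T cells held it. Col8a1 (-6.17 in MC903, -6.11 at oxazolone day 10) and Cytl1 (-3.94, -7.93 and -6.30 in MC903, oxazolone day 16 and oxazolone day 10) were low as well, and were seen in 6 and 12 untreated cells; Cytl1 had 2 UMIs at oxazolone day 16 (95% interval of its log2 ratio -10.98 to -6.05). In Foxp3-negative T cells Col8a1 stood at -4.94 and -1.12 and Cytl1 at -2.35, -2.01 and -1.55 in the same comparisons. The dendritic and fibroblast marker sums, 7604 and 2093 CPM in untreated skin, moved with these genes, and their part in the values was not tested.

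**Figure D4:**
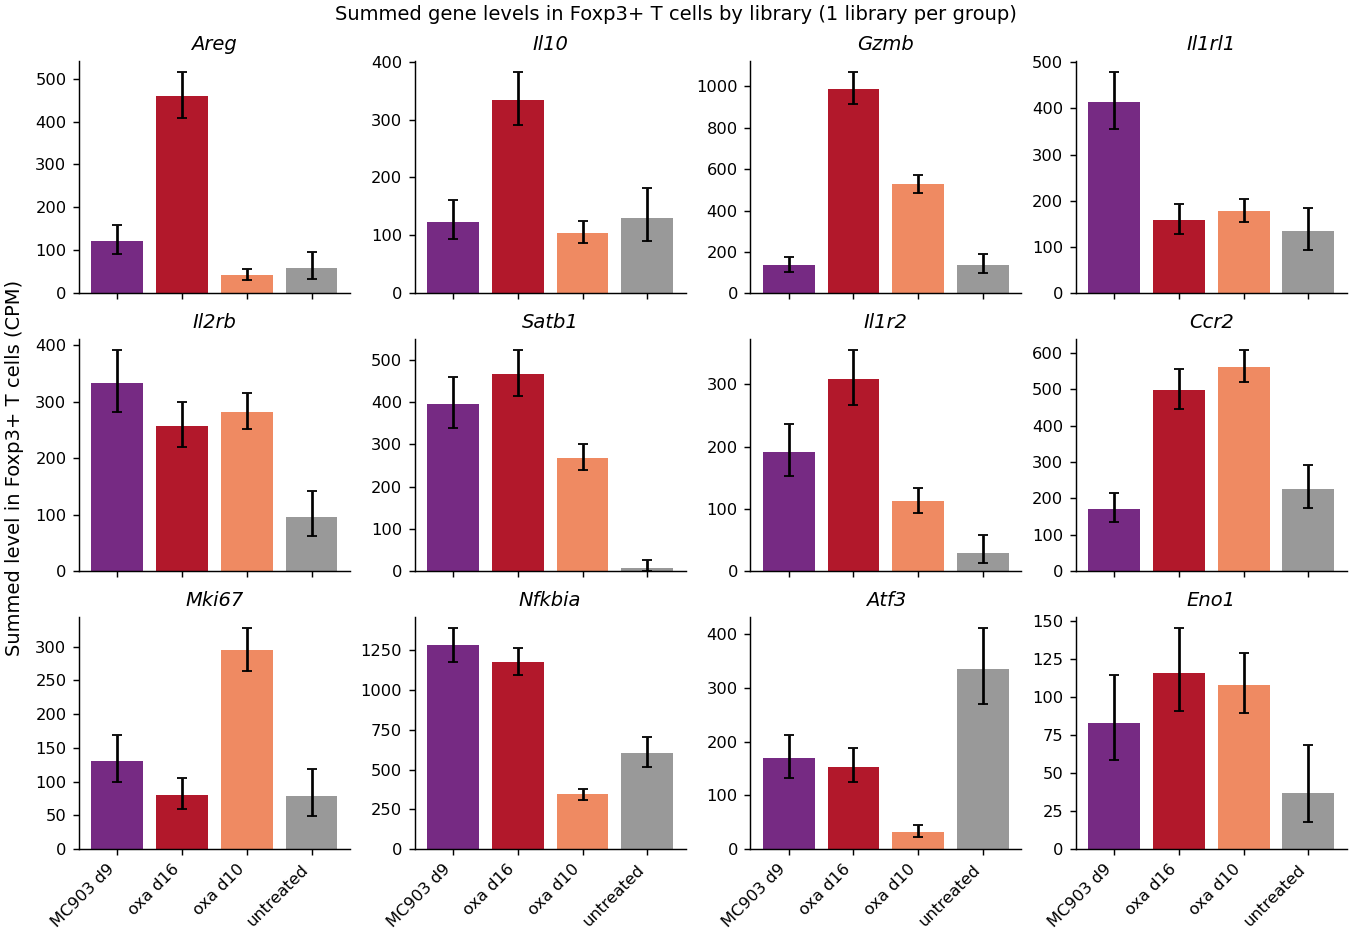
Summed levels in Foxp3+ T cells of each library, in CPM (vertical axes start at 0); oxa is oxazolone and d the day, each bar is 1 library of 24, 37, 103 or 29 cells and error bars are 95% exact Poisson intervals, which cover counting error only. Areg stood highest at oxazolone day 16 (459 CPM) and Il1rl1 in MC903 (414).

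The course of the oxazolone response was read from day 16 against day 10, where 1454 of 7096 measured genes passed 2-fold (20.5%), 410 higher (5.78%) and 1044 lower (14.7%). With TMM scaling the split was 576 higher and 672 lower and the median -0.03 in place of -0.28. Areg had 459 CPM at day 16 and 42.2 at day 10 (3.44, 95% interval 3.00 to 3.92), with a log2 ratio of 1.77 in Foxp3-negative T cells. The Areg shares of cells, at 64.9% (47.5% to 79.8%) at day 16 and 21.4% (13.9% to 30.5%) at day 10, did not overlap in their intervals, and nor did those at 1000 UMIs per cell (27.0%, 13.8% to 44.1%, and 5.83%, 2.17% to 12.2%). Il10 had 334 against 105 CPM (1.67, 95% interval 1.34 to 2.01), with a log2 ratio of -0.59 in Foxp3-negative T cells, and 16 of 37 cells held both Areg and Il10 at day 16, against 8 of 103 at day 10. Il10 shares at 1000 UMIs per cell were 18.9% (7.96% to 35.2%) at day 16 and 14.6% (8.39% to 22.9%) at day 10, with intervals that overlap. The counts of cells with both genes were not thinned. Gzmb (0.91, Foxp3-negative 1.65), Nfil3 (0.78, Foxp3-negative 0.83) and Tnfrsf4 (0.75, Foxp3-negative -0.06) were higher by less than 2-fold. Ikzf2 was lower (1319.7 against 2666 CPM, -1.01, -1.07 in Foxp3-negative T cells), and under 2-fold without doublets (-0.57) and with TMM (-0.77).

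Cell cycle genes were lower at day 16 than at day 10 in 6 of 15 cases and higher in none (median -0.78; 9 of 15 and -1.05 in Foxp3-negative T cells). Mki67 stood at 79.9 against 295 CPM (-1.88, 95% interval -2.34 to -1.45, Foxp3-negative -1.11), the cyclin gene Ccna2 at -1.73 and the replication clamp gene Pcna at -1.39, with -1.05 and -0.63 in Foxp3-negative T cells. With TMM scaling 3 of 15 were lower (median -0.53), and without doublets Ccna2 was -0.94 and Pcna -0.97. NF-kB genes were higher in 5 of 15 cases (median 0.89; 3 of 15 and 0.71 in Foxp3-negative T cells), led by Nfkbia (1174 against 345 CPM, 1.77, 95% interval 1.59 to 1.95, Foxp3-negative 1.67), Nfkb1 (1.44, Foxp3-negative 0.90) and Birc3 (1.10, Foxp3-negative 0.87). Without doublets 3 of 14 were above 2-fold, and Nfkb1 was 0.86. Ccr6, the receptor for CCL20, was lower (7.84 against 51.0 CPM, -2.70, 95% interval -4.38 to -1.40, Foxp3-negative 0.33, seen in 2 of 37 and 29 of 103 cells), as were Lef1, a partner of TCF-1 (-1.71, Foxp3-negative -0.77), the TGF-beta receptor gene Tgfbr1 (-1.26, Foxp3-negative -1.06), Il18r1 (-1.02, Foxp3-negative 0.33) and Tox (-1.21, Foxp3-negative -1.29). Without doublets Tgfbr1 was -0.72 and Il18r1 -0.64, and with TMM scaling Tox was -0.97. Fkbp5, a glucocorticoid-induced chaperone gene, had 65.8 against 323 CPM (-2.29, 95% interval -2.79 to -1.83, Foxp3-negative -1.50). Socs3 (2.04, Foxp3-negative 0.55) and Il1r2 (1.46, Foxp3-negative 1.29) were 0.94 and 0.26 without doublets. Of 14 dissociation stress genes 4 were higher (median 0.57; 3 of 14 and 0.44 in Foxp3-negative T cells), whereas without doublets none was higher and the median was -0.34.

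Both models were set side by side in MC903 against oxazolone day 10, with days 9 and 10 close but not equal. Of 6880 measured genes 1140 passed 2-fold (16.6%), 445 higher (6.47%) and 695 lower (10.1%). Ccr2 (171 against 562, -1.72, Foxp3-negative -0.63) and Gzmb (137 against 528, -1.94, 0.42 in Foxp3-negative T cells) were lower in MC903. Entpd1, the ATP-degrading enzyme CD39, had 20.3 against 123 CPM (-2.60, 95% interval -3.76 to -1.64, Foxp3-negative -0.03) and was seen in 6 of 24 and 52 of 103 cells. Il1rl1 (1.21, 95% interval 0.92 to 1.51, Foxp3-negative 1.58), Areg (1.53, Foxp3-negative 1.87), Ccr4 (1.48, Foxp3-negative 3.17), Cxcr4 (1.75, Foxp3-negative 1.48) and Socs3 (1.95, Foxp3-negative 0.48) were higher in MC903. With every cell scaled to the same total Gzmb was -0.95 and Ccr4 0.89, both under 2-fold. Higher in MC903 were also 5 of 14 NF-kB genes with none lower (median 0.47; 5 of 15 and 0.51 in Foxp3-negative T cells), among them Tnfaip3 (2.06) and Nfkbia (1.89), for which Foxp3-negative T cells gave 2.26 and 2.05. Of 15 cell cycle genes 6 were lower in MC903 and none higher (median -0.88; 8 of 15 and -1.04 in Foxp3-negative T cells). Iigp1, an interferon-induced GTPase gene, had 0 UMIs in MC903 and 239 in 28 cells at oxazolone day 10, at least 31.1-fold lower in MC903 when set against the floor of 3 UMIs in the MC903 sum.

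**Figure D5:**
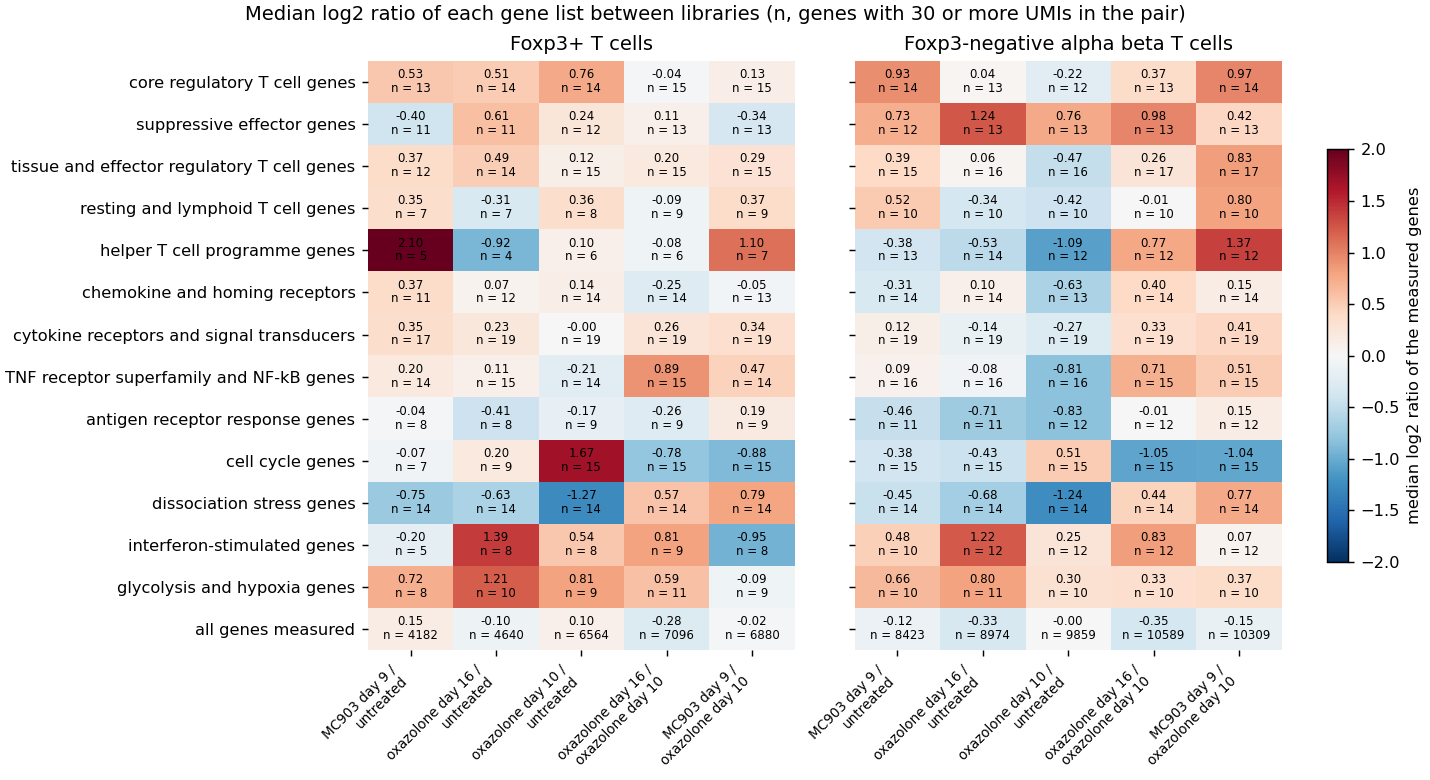
Median log2 ratio (colour scale, ending at 2 either way) of the measured genes of each list (rows) in the 5 pairs of libraries (columns), in Foxp3+ and in Foxp3-negative T cells; n is the number of genes with at least 30 UMIs in the pair. The cell cycle list stood at 1.67 for oxazolone day 10 against untreated in Foxp3+ T cells and at 0.51 in Foxp3-negative T cells, and the dissociation stress list was below 0 in all 3 comparisons with untreated skin in both.

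Foxp3+ T cells varied within a library. Gata3, the TH2 factor, was seen in 83.3% (MC903), 78.4% (day 16), 62.1% (day 10) and 69.0% (untreated) of them and in 1.17% (MC903), 1.15% (day 16), 2.51% (day 10) and 4.01% (untreated) of fibroblasts, and Foxp3-negative T cells gave 85.4% (MC903), 52.5% (day 16), 48.0% (day 10) and 51.4% (untreated). Depth differed between libraries. Thinned to 1000 UMIs, 16.7% (MC903), 13.5% (day 16) and 18.4% (day 10) of Foxp3+ T cells held Gata3, with intervals that overlap. Tbx21 was seen in 12.5% (MC903), 27.0% (day 16), 22.3% (day 10) and 6.90% (untreated) of Foxp3+ T cells. Thinned in the same way, the Tbx21 shares were 4.17% (MC903), 5.41% (day 16) and 1.94% (day 10). Gata3 and Tbx21 occurred in the same cell in 3 (MC903), 8 (day 16), 16 (day 10) and 1 (untreated) cases, and Il1rl1 and Gata3 in 16 (MC903), 15 (day 16), 33 (day 10) and 10 (untreated). Klrg1 and Mki67 shared 4 (MC903), 4 (day 16), 22 (day 10) and 1 (untreated) cells. Klrg1 alone was counted in 9 (MC903), 16 (day 16), 39 (day 10) and 10 (untreated) cells, and Mki67 in 9, 10, 40 and 5. These shared counts were not thinned for depth, and whether they differ from chance overlap was not tested. Il1rl1 was seen in 83.3% (MC903), 43.2% (day 16), 51.5% (day 10) and 51.7% (untreated) of Foxp3+ T cells, and at 1000 UMIs per cell in 41.7% in MC903 (22.1% to 63.4%), 13.5% at day 16 (4.54% to 28.8%), 20.4% at day 10 (13.1% to 29.5%) and 20.7% in untreated skin (7.99% to 39.7%), with intervals that overlap. Fibroblasts gave 1.88% (MC903), 9.37% (day 16), 10.5% (day 10) and 0.706% (untreated) for Il1rl1.

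Only the oxazolone day 10 library had at least 20 cells on either side of an Il1rl1 split (53 with a UMI and 50 without), so the split was not tested and is described there first. Cells with Il1rl1 had 94.0 CPM of Klrg1 against 48.0 in those without (log2 ratio 0.97, 95% interval 0.27 to 1.70). Tnfrsf9 had 776 against 504 (0.62, 0.40 to 0.84), Tnfrsf4 421 against 255 (0.72, 0.42 to 1.04) and Il10 131 against 75.7 (0.79, 0.23 to 1.37). Il10 was seen in 33 cells, and only 17 of them were among the 53 with Il1rl1. Intervals of this split cover counting error only and not the spread between cells. Cd83 had 92.3 against 35.1 (1.40, 0.62 to 2.23), and Tcf7 was lower (10.1 against 35.1, -1.80, -3.41 to -0.42). Ikzf2 differed little (0.21, 0.10 to 0.31), and the intervals of Gata3 (0.45), Batf (0.37), Areg (0.86, -0.05 to 1.83) and Mki67 (-0.27, -0.59 to 0.05) reached 0. The intervals of Tnfrsf18 (-0.06) and Il2rb (-0.20) reached 0 as well, and Gzmb was lower (-0.24, -0.48 to -0.01). Oxazolone day 16, with 16 cells against 21, ran the other way for Il10 (-1.09, -1.54 to -0.65), Tnfrsf9 (-0.46, -0.74 to -0.17), Tnfrsf4 (-0.62, -0.94 to -0.31), Cd83 (-1.73, -2.74 to -0.84) and Tcf7 (3.44, 0.58 to 8.89). The Tcf7 ratio rested on 9 UMIs against 1. In MC903, with 20 cells against 4, Il10 stood at -2.21 (-3.02 to -1.39) and Tnfrsf9 at 1.81 (1.01 to 2.75). Il10 was seen there in 9 cells, 8 of them with Il1rl1, so its 27 UMIs without Il1rl1 came from a single cell. In untreated skin, with 15 cells against 14, Tnfrsf9 stood at 0.88 (0.08 to 1.75), Tnfrsf4 at 1.02 (0.16 to 1.97) and Il10 at 0.17 (-0.89 to 1.28). Ikzf2 stood at 2.62 (1.96 to 3.36) in MC903, -0.63 (-0.84 to -0.43) at oxazolone day 16 and 0.13 (-0.17 to 0.43) in untreated skin. Gata3 stood at -1.65 (-2.17 to -1.11), 0.70 (0.14 to 1.27) and 0.14 (-0.62 to 0.94) in the same libraries. Klrg1 was higher in cells with Il1rl1 in all 4 libraries, and its interval reached 0 in MC903 and at oxazolone day 16. In MC903 the Klrg1 ratio rested on 16 UMIs against 1.

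Foxp3+ T cells held a far larger part of some transcripts than their share of cells, which was 0.625% (MC903), 0.468% (day 16), 1.24% (day 10) and 0.377% (untreated). Foxp3-negative T cells, which were more numerous, also held large parts of several of these transcripts. Tnfrsf4 was the most concentrated of the genes looked at other than Foxp3 at oxazolone day 16, with 21.0% (MC903), 65.4% (day 16), 45.5% (day 10) and 9.36% (untreated) of the library's UMIs in Foxp3+ T cells. Il2ra gave 25.7% (MC903), 23.0% (day 16), 47.1% (day 10) and 11.1% (untreated), and Ccr8, a receptor of skin T cells, 12.9% (MC903), 31.6% (day 16), 38.7% (day 10) and 5.24% (untreated). For Ctla4 the parts were 17.2% (MC903), 37.9% (day 16), 24.3% (day 10) and 1.63% (untreated), the untreated library having 11150 Ctla4 UMIs in all and a UMI in 54.6% of fibroblasts. Of all Il10 UMIs, 10.6% (MC903), 13.2% (day 16), 22.5% (day 10) and 11.3% (untreated) were in Foxp3+ T cells. Areg was mostly elsewhere, with 7.52% (MC903), 5.78% (day 16), 6.69% (day 10) and 0.754% (untreated) in Foxp3+ T cells, although the oxazolone day 16 library held 5071 Areg UMIs, 293 of them in these cells. Gzmb gave 8.60% (MC903), 23.4% (day 16), 37.3% (day 10) and 23.1% (untreated). Tgfb1 lay at 1.74% (MC903), 0.534% (day 16), 1.58% (day 10) and 0.763% (untreated), with intervals above the share of cells in MC903 (1.38% to 2.17%), at oxazolone day 10 (1.31% to 1.89%) and in untreated skin (0.504% to 1.11%), and holding it at oxazolone day 16 (0.416% to 0.674%). Foxp3-negative T cells held 65.5% (MC903), 18.5% (day 16), 13.5% (day 10) and 5.06% (untreated) of Tnfrsf4. For Il2ra they held 53.2% (MC903), 30.1% (day 16), 17.2% (day 10) and 13.2% (untreated). For Ccr8 they held 35.3% (MC903), 54.4% (day 16), 31.9% (day 10) and 33.5% (untreated). For Gzmb they held 63.3% (MC903), 51.2% (day 16), 29.1% (day 10) and 19.4% (untreated).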

How the data were processed

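Per the labels' protocols, dissociated skin cells were profiled with 10x Genomics 3′ v3.1 chemistry. The values are raw UMI counts per gene and barcode, deposited by the authors as matrices of called cells. Counting used Cell Ranger 8.0 with mm10 per the submitters' processing notes, while the file headers give 8.0.0 for MC903 day 9 and oxazolone day 16 and 7.2.0 for oxazolone day 10 and untreated, so the header version differs between libraries. For the annotation and for intronic reads, the setting is not given in the sources used here.

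The members, gene lists and tests were chosen with earlier results of these data known. Cells were gated on raw counts among barcodes with 300 or more genes and no more than 15% mitochondrial UMIs. Doublets were kept in the reported values and removed with Scrublet (scanpy 1.11.5) as an alternative. Counts summed per library and kind of cell were compared with edgeR 4.0.16 (quasi-likelihood test, TMM scaling, filterByExpr, library as a block, Benjamini-Hochberg adjustment over all genes tested, called under 0.05). Both kinds of cell came from the same pooled suspension, which is where the pairing comes from. The test was tried on simulated data with 200 changed genes. DESeq2 1.42.0 was an alternative. Treatment ratios used CPM of the summed counts (scaled to total UMIs), with exact Poisson and conditional binomial intervals, and had no test. Per list, the 4 genes with the smallest adjusted p or the largest ratio were named, with the 12 highest and 8 lowest called genes (8 and 8 for ratios) with at least 100 UMIs; other genes named were chosen after their values were seen. The split of Foxp3+ T cells by Il1rl1 was to be tested in the same way and was described only, since 1 library had enough cells. Promoter sequences are RefSeq's (GRCm38.p6), matched by symbol.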

Additional observations from a re-analysis of the deposited data

Results flagged for a closer look

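The values below are log2 ratios of summed levels whose direction differed, by at least 2-fold each way, between libraries or between Foxp3+ and Foxp3-negative T cells. In every case the difference was not tested, and each library is 1 sample.

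Entpd1, the ATP-degrading enzyme CD39, was lower in Foxp3+ than in Foxp3-negative T cells of MC903 skin (-1.35) and higher at oxazolone day 10 (1.23) and in untreated skin (1.47). Ccr8 was higher in Foxp3+ T cells at oxazolone day 16 (1.35) and day 10 (1.65) and lower in untreated skin (-1.15, on 10 Foxp3+ UMIs). Ly6c1 was lower in Foxp3+ T cells in MC903 skin (-1.75, 95% interval -4.08 to -0.11, on 3 UMIs) and higher at oxazolone day 16 (1.68) and day 10 (1.66). Between MC903 and oxazolone day 10 it stood at -2.15 (95% interval -4.49 to -0.48) in Foxp3+ and at 1.26 in Foxp3-negative T cells.

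Cytokine genes differed in direction as well. Ifng was higher in Foxp3+ than in Foxp3-negative T cells of MC903 skin (1.52) and lower at oxazolone day 16 (-4.28) and oxazolone day 10 (-3.73). Untreated Foxp3+ T cells had 0 Ifng UMIs, and their ratio, set against the floor of 3 UMIs in the sum, was at most -2.41. Tnf was higher in Foxp3+ T cells of MC903 skin (2.08) and lower in those of untreated skin (-1.08). For MC903 over untreated skin Tnf gave 2.10 in Foxp3+ and -1.06 in Foxp3-negative T cells, with 83.7% of the MC903 Foxp3+ UMIs in 1 cell. Between MC903 and oxazolone day 10, Cd40lg stood at -1.53 in Foxp3+ (on 5 against 37 UMIs) and 2.74 in Foxp3-negative T cells, and Il1r1, with 3 UMIs in MC903 Foxp3+ T cells, at -2.15 (95% interval -4.49 to -0.48) in Foxp3+ and 1.45 in Foxp3-negative T cells.

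Myc was higher in Foxp3+ than in Foxp3-negative T cells at oxazolone day 16 (1.24) and lower in untreated skin (-1.28). Of the cell cycle genes, Cdk1 stood at 3.04 (95% interval 1.09 to 6.13, with 2 untreated UMIs) in Foxp3+ and -1.34 in Foxp3-negative T cells for oxazolone day 16 over untreated skin. Stmn1 was lower in Foxp3+ than in Foxp3-negative T cells of MC903 skin (-1.04) and higher at oxazolone day 16 (1.69), and for oxazolone day 16 over untreated skin it stood at 1.02 in Foxp3+ and -1.44 in Foxp3-negative T cells.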

How the results depend on the processing

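Of the named genes of the Foxp3 comparison, 609 of their values under alternatives kept direction and side of the threshold, 39 newly passed it, 159 no longer passed and 1 turned sign. The 609 include named genes that were not called in the main fit and stayed so, and are not a count of calls that held. Zfp36 was -0.21 without cells holding marker UMIs of other cell types. The count of 224 called genes was 374 with DESeq2, 809 with no filter on low counts, 143 with at least 2 Foxp3 UMIs, 44 among cells with Cd4 and no Cd8 UMI, and 26 to 101 with a library left out. Thinning cells to at most 5000 UMIs, chosen after seeing the data, gave 560. With no replicate block, ignoring the pairing of both kinds of cell within a library, 38 genes were called.

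Of the treatment ratios, 525 stayed within counting error, 119 moved beyond it and 5 turned sign. In MC903 against untreated skin these were Dct (-0.65) and Cpa3 (-0.64) without the cell with most UMIs, and Thbs1 (-3.01) without doublets. In oxazolone day 16 against untreated skin they were Mmp12 (-1.86) without that cell and Ccl2 (-0.75) without doublets. Leaving out that cell, and scaling every cell to the same total, were also chosen after seeing the data. With at least 100 UMIs in the pair, 184, 256 and 274 genes passed 2-fold in MC903, oxazolone day 16 and oxazolone day 10 over untreated skin, 395 in day 16 over day 10 and 277 in MC903 over day 10. Without doublets the counts were 615 for oxazolone day 16 over untreated and 931 over day 10. Without the cell with most UMIs, oxazolone day 10 over untreated split into 1135 higher and 397 lower. The cause of these changes was not tested.

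The Foxp3+ share, in the order MC903, oxazolone day 16, oxazolone day 10 and untreated, was 1.52%, 1.64%, 7.02% and 9.68% at 1000 UMIs per cell and 21.6%, 50%, 53.5% and 40.9% among cells with Cd4 and no Cd8 UMI. With at least 2 Foxp3 UMIs it was 22.5% at oxazolone day 10 and 14.0% in untreated skin. Not run, for having under 20 cells in a library, were all 5 treatment pairs without cells holding other types' markers (13, 10, 46 and 8 cells) and 4 of them with at least 2 Foxp3 UMIs. The test of the Il1rl1 split could not be run.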
